A study of Mus musculus with 8 samples.

Results

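The tripartite motif (TRIM) genes were followed in mouse ileum, the last segment of the small intestine, on 8 one-colour Agilent whole-genome arrays. All array genes whose name begins with Trim and a digit were taken, which gave 97 probes for 66 TRIM genes out of 35715 gene names on the design. Each gene was represented by its probe with the highest mean signal over the 8 arrays, among the probes that met the detection rule where any did. Of the 66 genes, 46 were detected well enough to be tested, meaning that at least 4 of the 8 arrays placed a probe well above background, and for 36 all 8 arrays did.

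All mice were females described as Rosa26rtTA/+, Hprt Myc-Tnk1tg, a strain in which a tetracycline-dependent activator made from the Rosa26 locus drives a Myc-tagged Tnk1 transgene placed at Hprt when doxycycline is given. The doxycycline group (n = 4) received 50 µg per g body weight in 100 µl by intraperitoneal injection and the saline group (n = 4) received 100 µl of 0.9% NaCl; ileum was taken 24 h later. Ages are not given, and the saline arrays are titled WT although their strain entry is the transgenic one. Both groups carry activator and transgene by the strain entry, and doxycycline was not given to mice lacking the transgene, so the drug and the induced kinase cannot be told apart. The question set by the design is which transcripts differ after Tnk1 induction. Nothing states that each array holds a different animal, and p-values then measure the spread between these samples.

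TRIM proteins are mostly ubiquitin ligases. They share a RING domain that recruits the ubiquitin-charged enzyme, B-box zinc fingers and a coiled coil, followed by a variable end that selects the target. A subset is transcribed in response to interferon and acts in antiviral defence, either by binding virus or by adding ubiquitin chains to proteins of the sensor pathways, whereas others serve in muscle, nerve, chromatin or red cell development. Interferon-induced genes often carry an interferon-stimulated response element (ISRE), a short repeat of GAAA bound by STAT and IRF factors.

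The ISRE was searched on both strands as GAAA, any 2 bases and GAAA again, from 250 bases before to 50 bases after the RefSeq start (GRCm38.p6). A RefSeq promoter was found for 50 of the 66 genes. The letters were in 8 of the 50 (16%), against 1079 of 27025 genes overall (3.99%). Among a list of 12 TRIM genes known to be induced by interferon, the letters were in 7 of the 11 with a promoter (63.6%), namely Trim12a, Trim12c, Trim21, Trim26, Trim30a, Trim30d and Trim34a. Among the other TRIM genes they were in 1 of 39 (2.56%), Trim2. The GAS element, searched as TTCNNNGAA on both strands, was in 5 of the 50 (10%), none of them on the interferon-induced list, and in 9.55% of all genes. A match describes the letters in this window only.

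The following 3 stretches of 100 bases lie directly before the RefSeq start on the gene's own strand and are shown because Trim30a and Trim30d were the interferon-induced members with the largest differences, while Trim12c, their neighbour on chromosome 7 with the same letters, did not pass the test. Capitals mark the match.
Trim30a: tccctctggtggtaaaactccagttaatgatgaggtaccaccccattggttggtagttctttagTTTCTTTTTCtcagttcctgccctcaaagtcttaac
Trim30d: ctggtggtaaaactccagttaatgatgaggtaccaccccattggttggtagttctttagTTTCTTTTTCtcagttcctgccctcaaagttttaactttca
Trim12c: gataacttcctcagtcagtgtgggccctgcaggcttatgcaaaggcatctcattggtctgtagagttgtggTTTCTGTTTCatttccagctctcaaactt
They were read from the minus strand at chr7:104465194-104465293, chr7:104507850-104507949 and chr7:104353350-104353449. The match began 36, 41 and 29 bases before the start, respectively. The Trim30a and Trim30d stretches, shifted by 5 bases, were identical at 94 of 95 aligned bases. For comparison, 30 bases are given for 3 further genes that hold the letters and were not called higher. Trim21 did not pass the test, although its difference was 0.51 and its groups did not overlap. Trim34a did not pass either, and Trim2 fell.
Trim21: agaggaaactGAAAGTGAAAtttggactgc
Trim34a: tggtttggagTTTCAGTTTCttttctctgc
Trim2: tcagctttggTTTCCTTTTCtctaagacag
These matches began at positions 20, 11 and 29 counted from 1 at the RefSeq start, and the stretches lie at chr7:102565444-102565473 (minus strand), chr7:104244457-104244486 (plus strand) and chr3:84212791-84212820 (minus strand). A further Trim21 match, at position 14, overlaps the marked one, and its first bases are not in capitals. Trim30a also holds a match at position 3 of another RefSeq start, not shown here.

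Levels below are the log2 processed signal minus the 75th percentile of its array, so 0 is that percentile, and a difference is doxycycline minus saline on the log2 scale. The arrays held 56.1 to 58.3% of probe spots well above background in the doxycycline group and 41.3 to 44.7% in the saline group. The scanner software replaced 24.1 to 26.4% of doxycycline spots and 38.0 to 42.6% of saline spots with a surrogate at the noise level. After scaling, the lowest level that counted as well above background was therefore lower on the doxycycline arrays (-4.90 to -4.51) than on the saline arrays (-3.07 to -2.57). Doxycycline arrays fill row 1 of the slide and saline arrays row 2, so row and treatment cannot be told apart. As a check of the labels, the Tnk1 probe towards the 5′ end was higher in the doxycycline group (0.64 ± 0.23 against -2.15 ± 0.40, SD, n = 4; adjusted p 0.000416, limma), while the brighter probe towards the 3′ end was not (2.13 ± 0.23 against 2.58 ± 0.26). Hprt, the locus of the transgene, was also higher, by 6.01 (adjusted p 4.42e-05, limma). The ileal markers Fabp6 and Vil1 had means of 9.25 and 7.50 in the doxycycline group and 9.45 and 7.80 in the saline group, and none of the 8 tested ileal epithelial markers passed the test (2 had an unadjusted p under 0.05, limma). In bulk tissue, fewer cells of a type and less RNA per cell cannot be told apart.

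Of the 46 tested TRIM genes, 7 were higher after doxycycline (15.2%) and 4 were lower (8.70%) at an adjusted p under 0.05 (limma, adjusted over 21362 genes), against 5.94% and 7.9% of all genes tested (13.8% in either direction). The 7 were Trim6, Trim10, Trim15, Trim25, Trim30a, Trim30d and Trim40, and the 4 were Trim2, Trim32, Trim38 and Trim45. The median difference was 0.16 over the tested TRIM genes and 0.02 over all genes. Among the 36 genes well above background on all 8 arrays, 5 were higher (13.9%) and 2 lower (5.56%). In 11 TRIM genes all doxycycline arrays lay above all saline arrays (8.83% of all genes), and in 7 they lay below (13% of all genes). The 11 include Trim6, Trim10 and Trim65, whose saline signals were all at background, so there the order is no measured difference. Without saline replicate 1 the 7 higher genes became 4. The 4 lower genes became 2 without saline replicate 1, and 1 without doxycycline replicate 3, doxycycline replicate 4 or saline replicate 3. Trim6, Trim10, Trim9, Trim23 and Trim65 entered the test through the doxycycline arrays alone, since all 4 saline arrays had them at background, and the calls of Trim6 and Trim10 rest on that. Among the other 41 tested genes, 5 were higher (12.2%) and 4 lower (9.76%), with differences from -1.97 to 2.14 and a median of 0.10.

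**Figure D1:**
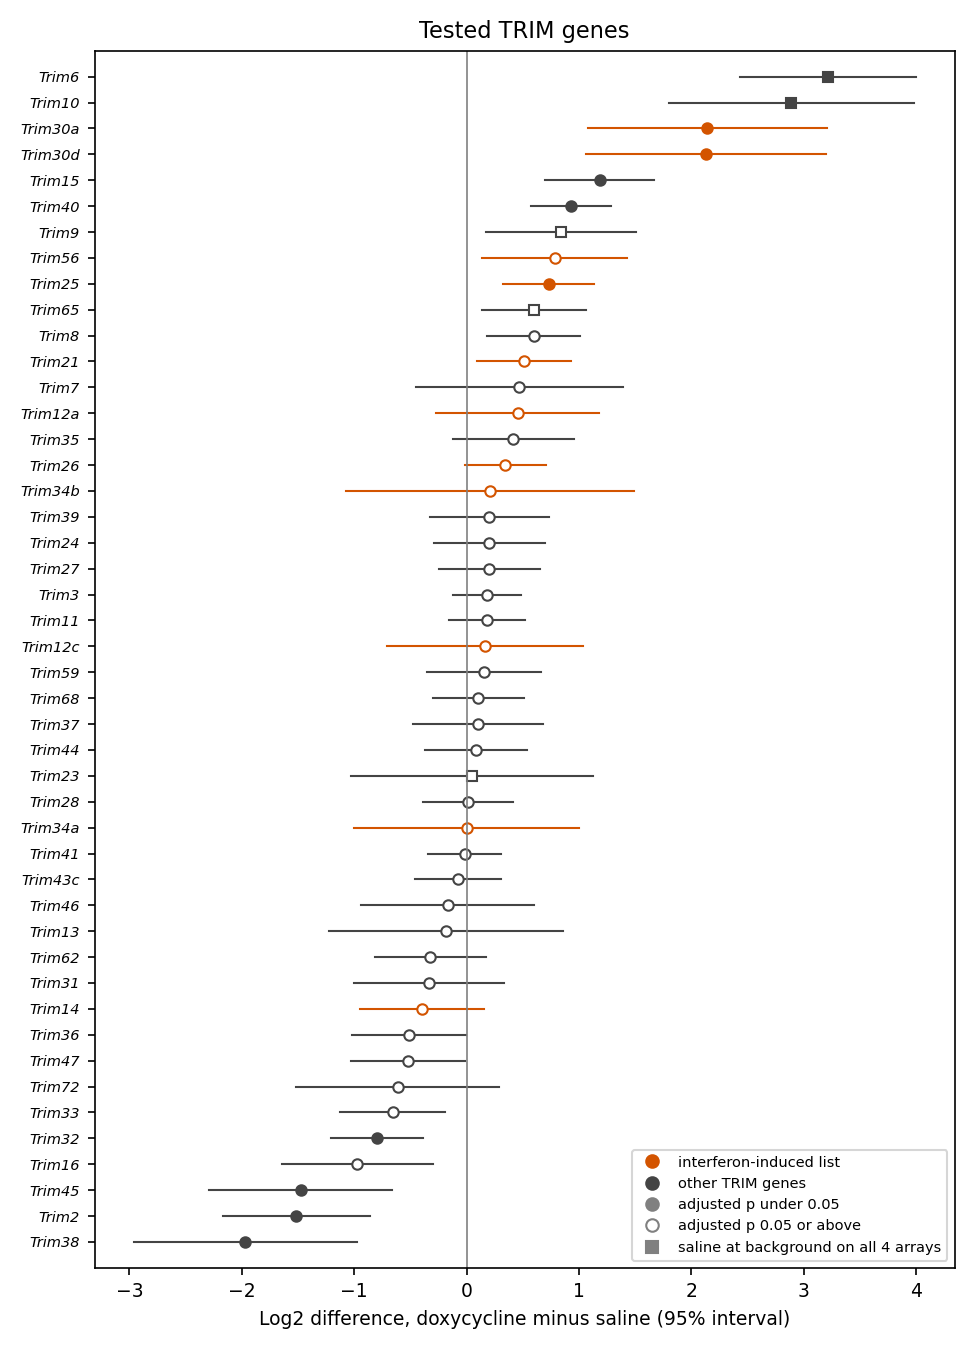
Log2 difference, doxycycline minus saline, of each of the 46 tested TRIM genes, with 95% intervals from limma; orange points are the interferon-induced list, dark points the other TRIM genes, and filled points have an adjusted p under 0.05. Squares mark genes with saline signals at background on all 4 arrays, Trim6 and Trim10 among them, where the plotted value is no measured difference. The other 5 filled points to the right run from 0.73 (Trim25) to 2.14 (Trim30a), and the 4 to the left from -1.97 (Trim38) to -0.80 (Trim32).

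Of the 12 interferon-induced genes, those that passed the test were Trim30a and Trim30d, about 4-fold higher after doxycycline, and Trim25. Trim25 had a smaller rise that its second probe did not share. The list was chosen with earlier results of these data known, so the counts below describe it and are no test of it. Of the 11 that were tested, 3 rose (27.3%), 0 fell and 8 did not pass the test. Of all genes tested, 5.94% rose and 7.9% fell. The median difference of the 11 was 0.45, against 0.08 in the 35 other tested TRIM genes. At an unadjusted p under 0.05 there were 5 of the 11, all with a positive difference, against 31.4% of all genes in either direction. Without saline replicate 1 the count of 3 became 0, and without saline replicate 3 it became 1. In 4 of the 11 (36.4%) all doxycycline arrays lay above all saline arrays, against 8.83% of all genes tested.

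Trim30a, reported to restrain NF-kB signalling through Tab proteins, stood at 2.68, 3.27, 0.94 and 1.48 on doxycycline replicates 1 to 4 and at -0.47, 0.16, -0.03 and 0.15 on saline replicates 1 to 4. Every doxycycline array was above every saline array, with replicates 1 and 2 higher than 3 and 4. The difference was 2.14 ± 0.47 (SE), or 4.41-fold with a 95% interval of 2.11 to 9.21 (adjusted p 0.0200, limma). Trim30d, its neighbour on chromosome 7, stood at 2.78, 3.37, 1.14 and 1.54 on the doxycycline arrays and at 0.06, 0.21, 0.47 and -0.44 on the saline arrays. Here too the groups did not overlap and the same doxycycline arrays were the high ones. The difference was 2.13 ± 0.47 (SE), or 4.38-fold with an interval of 2.09 to 9.16 (adjusted p 0.0204, limma). The levels of both genes lay within 0.59 of each other on every array. The closest ungapped match between probes of any 2 TRIM genes was 31 of 59 bases. Binding of a probe to the transcript of a close relative was not tested, so signal shared between these copies cannot be told apart here. Without saline replicate 1 the adjusted p was 0.0596 for Trim30a and 0.0551 for Trim30d, and without saline replicate 3 it was 0.0539 for Trim30a (limma).

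Trim25, the ligase that adds ubiquitin to the RNA sensor RIG-I (Ddx58), stood at 6.91, 6.79, 6.53 and 6.22 after doxycycline and at 5.78, 5.83, 6.01 and 5.91 after saline. The lowest doxycycline array was above the highest saline array. The difference was 0.73 ± 0.18 (SE), or 1.66-fold with an interval of 1.25 to 2.20 (adjusted p 0.0293, limma). A second Trim25 probe, with its listed mm9 position running from chr11:88874956 to 88881181, did not follow it, with means of 5.04 and 5.14 and a difference of -0.10 ± 0.26 (SE) (adjusted p 0.824, limma). The adjusted p of Trim25 was 0.281 for the mean of both probes. It lay between 0.0517 and 0.0876 when doxycycline replicate 1, 2 or 3 or saline replicate 1, 2 or 3 was left out.

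The other interferon-induced members did not pass the test, and several were split within the doxycycline group. Trim21, a cytosolic receptor for antibody bound to virus, stood at 1.41, 2.06, 1.46 and 1.38 after doxycycline and at 1.21, 1.00, 1.02 and 1.06 after saline, without overlap. Its difference was 0.51 ± 0.18 (SE) (adjusted p 0.0966, limma). Trim56, which acts on the DNA sensing adaptor STING, stood at 4.22, 4.25, 3.32 and 3.1 against 3.06, 2.90, 3.11 and 2.70. Replicates 1 to 3 were above all saline arrays, while replicate 4 lay among them. The difference was 0.78 ± 0.28 (SE) (adjusted p 0.0984, limma). Trim26, a ligase encoded beside the MHC genes, stood at 3.75, 3.99, 4.18 and 4.01 against 3.65, 3.40, 3.67 and 3.84. Saline replicate 4 was above doxycycline replicate 1, and the difference was 0.35 ± 0.16 (SE) (adjusted p 0.176, limma).

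Trim34a, a relative of the retroviral restriction factor TRIM5, stood at 1.62, 2.19, 0.11 and 0.36 after doxycycline and at 1.00, 1.49, 1.00 and 0.79 after saline. Doxycycline replicates 1 and 2 were above every saline array and replicates 3 and 4 below every one. The difference was 0.00 with a 95% interval from -1.0 to 1.0. Trim12c had the same split, with 1.35, 1.16, -0.47 and 0.05 against 0.59, 0.39, 0.25 and 0.21. Its difference was 0.16, with an interval from -0.71 to 1.04. Its other 2 detected probes gave 0.96 ± 0.41 (SE) and 0.04 ± 0.52 (SE), neither past the test (adjusted p 0.152 and 0.968, limma). Trim12a stood at 4.33, 4.50, 3.21 and 3.28 against 3.46, 3.65, 3.31 and 3.07, a difference of 0.45 with an interval from -0.27 to 1.18. Its doxycycline replicates 1 and 2 were above the saline arrays and the other replicates among them. A second detected Trim12a probe gave 0.83 ± 0.42 (SE), not past the test (adjusted p 0.211, limma). The 2 probes lie 23290 bases apart in mm9, whereas RefSeq gives the gene a length of 15666 bases. Whether both measure Trim12a was not tested. Trim34b, well above background on 2 saline arrays, stood at -1.91, -1.55, -3.99 and -3.50 against -2.48, -2.70, -2.71 and -3.88 (difference 0.21, interval -1.07 to 1.48). Trim14, a mitochondrial adaptor without a RING domain, stood at 2.10, 2.49, 1.77 and 1.30 against 2.36, 2.37, 2.37 and 2.14. Only doxycycline replicate 2 was above the saline arrays, and the difference was -0.40 (interval -0.95 to 0.16). Trim30b was not tested, being well above background on 2 doxycycline arrays and no saline array.

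In 9 of the 11 tested interferon-induced members, doxycycline replicates 1 and 2 both lay above replicates 3 and 4, and in 1 both lay below. Over all genes tested these shares were 26.5% and 22.9%. In the other TRIM genes there were 13 and 10 of 35. The same order was seen in 28 of 31 other interferon-stimulated genes. Of these 31, 20 rose (64.5%), 0 fell and 11 did not pass the test (median difference 2.07). Over all genes tested, 5.94% rose and 7.9% fell. The summed linear signal of the interferon-induced TRIM genes ran from 122 to 205 on the doxycycline arrays and from 99.6 to 108 on the saline arrays. Trim25 weighs most in this sum, with a mean level of 6.24 against 3.81 for the next brightest, Trim26. The second Trim25 probe, not in the sum, did not rise. The summed linear signal of the leukocyte markers ran from 108 to 136 on the doxycycline arrays and from 95 to 139 on the saline arrays. Of 9 tested leukocyte markers, 0 passed the test as higher and 1 as lower. Their differences were positive in 7 and negative in 2, with a median of 0.44, and 3 had an unadjusted p under 0.05 (limma). Of 3 tested neutrophil markers, 2 rose, S100a8 and S100a9, and both had overlapping groups. The part of these cells in the result was not tested. Of the genes that encode type I interferons, Ifnb1, Ifna2 and Ifna4 were well above background on no array and Ifna1 on 3 doxycycline arrays and 0 saline arrays. Of 8 tested interferon ligand and receptor genes, 1 rose and 2 fell: the receptor chain Ifnar2 rose by 0.84, the interferon gamma receptor chain Ifngr2 fell by 1.16 and Il10rb, a chain of the interferon lambda receptor, fell by 0.74 (adjusted p 0.0254, 0.0027 and 0.0437, limma).

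**Figure D2:**
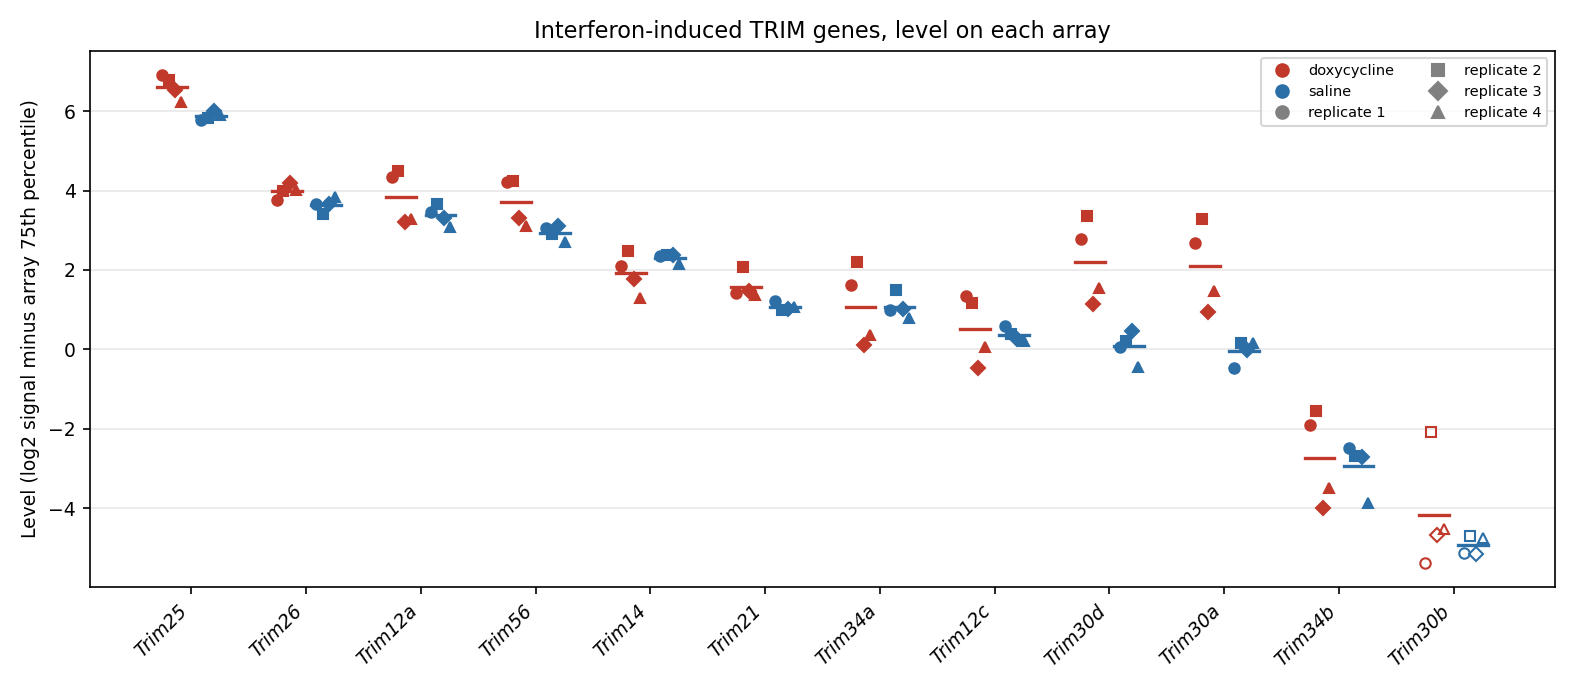
Level of the 12 interferon-induced TRIM genes on each array (log2 signal minus the array's 75th percentile); red is doxycycline, blue is saline, symbols give the replicate, bars are group means, and open symbols mark Trim30b, which was not tested. For Trim30a and Trim30d all red points lie above the blue ones, and for Trim34a and Trim12c the red points lie on both sides of the blue mean; levels of different genes come from different probes and are not to be compared.

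Outside the interferon-induced list, the genes that rose were Trim6, Trim10, Trim15 and Trim40. Trim15 and Trim40 were bright and kept their call under every one of the 20 alternatives run, while Trim6 and Trim10 were measured above background in the doxycycline group alone.

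Trim40, a gene expressed in the gut that restrains NF-kB signalling, stood at 3.90, 3.99, 4.35 and 3.83 after doxycycline and at 3.09, 3.13, 2.99 and 3.16 after saline. The groups were well apart and each varied little. The difference was 0.93 ± 0.16 (SE), or 1.90-fold with an interval of 1.49 to 2.43 (adjusted p 0.00707, limma). Trim15, found at focal adhesions, stood at 3.31, 3.70, 3.54 and 2.89 against 2.21, 2.51, 2.08 and 1.90. No array of either group reached the other group. The difference was 1.18 ± 0.22 (SE), or 2.27-fold with an interval of 1.62 to 3.18 (adjusted p 0.00953, limma). In neither gene were doxycycline replicates 1 and 2 both above replicates 3 and 4.

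Trim6, which makes free ubiquitin chains that activate the kinase Ikbke in the interferon response, stood at -2.13, -1.72, -0.62 and -1.08 after doxycycline and at -5.16, -4.68, -4.23 and -4.34 after saline. No saline array was well above background, so its saline level is a bound. Against that bound Trim6 was at least 2.71-fold higher after doxycycline (means -1.39 and -4.60). Its adjusted p of 0.000893 (limma) sets the doxycycline arrays against saline values at background and is no test of the bound. The call rests on 1 of the 3 Trim6 probes. The other Trim6 probes were well above background on no array of either group, with doxycycline means of -6.06 and -6.44. Trim10, needed for late red cell development, stood at -2.52, -0.91, -1.97 and -3.57 against -5.30, -4.92, -5.40 and -4.90. Its saline signal also stayed at background on all 4 arrays, and it was at least 1.5-fold higher (means -2.24 and -5.13; adjusted p 0.0065, limma, with the same limit). These bounds set the mean of the doxycycline arrays against the lowest signal well above background on each saline array, or the probe's own signal if higher. With all values raised to a common floor, the adjusted p was 0.0581 for Trim6 and 0.365 for Trim10, and with normexp background it was 0.126 for Trim10 (limma). Of the 3 red cell markers tested, Hba-a1, Hbb-b1 and Alas2, 0 rose and Alas2 fell by 2.21, while Epb4.2 was well above background on no array. The summed linear signal of the 3 was at most 8.43 on the doxycycline arrays and ran from 7.99 to 40.1 on the saline arrays, and their part in the result was not tested. Trim58, another TRIM gene of red cells, was well above background on no array.

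Of the 7 genes that rose, 6 lie in 2 clusters of neighbouring TRIM genes, a grouping made after the values were seen. The 6 include Trim6 and Trim10, which entered the test through the doxycycline arrays alone and did not pass with the common floor. On chromosome 17, RefSeq lists Trim26, Trim15, Trim10, Trim40 and Trim31 in that order with 0 coding genes between them, and Trim39 before them across 9 genes of the H2-M family. Of these 6 genes 3 rose (50%), against 5.94% of all genes tested. Trim31, at the end of the row and a ligase for the mitochondrial adaptor Mavs, stood at 4.51, 4.62, 3.60 and 3.35 after doxycycline and at 4.55, 4.41, 4.27 and 4.2 after saline, a difference of -0.34 with an interval from -1.01 to 0.33. Trim39 differed by 0.20, with an interval from -0.32 to 0.73. On chromosome 7 the cluster from Trim6 to Trim30d holds 8 genes of the array. Of the 7 tested, 3 rose (42.9%, against 5.94% of all genes tested), Trim6 at its start and Trim30a and Trim30d at its end. The interferon-induced Trim34a, Trim12a, Trim34b and Trim12c between them did not pass the test. In mm9, the array's build, the probes of the genes that rose lie at chr7:111382909-111382968 (Trim6), chr7:111557578-111557637 (Trim30a), chr7:111620805-111620864 (Trim30d), chr17:36997790-36997849 (Trim15), chr17:37014159-37014218 (Trim10), chr17:37018580-37018639 (Trim40) and chr11:88881521-88881580 (Trim25). The probes are not assigned to exons or untranslated regions, since mm9 transcript models were not used here.

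**Figure D3:**
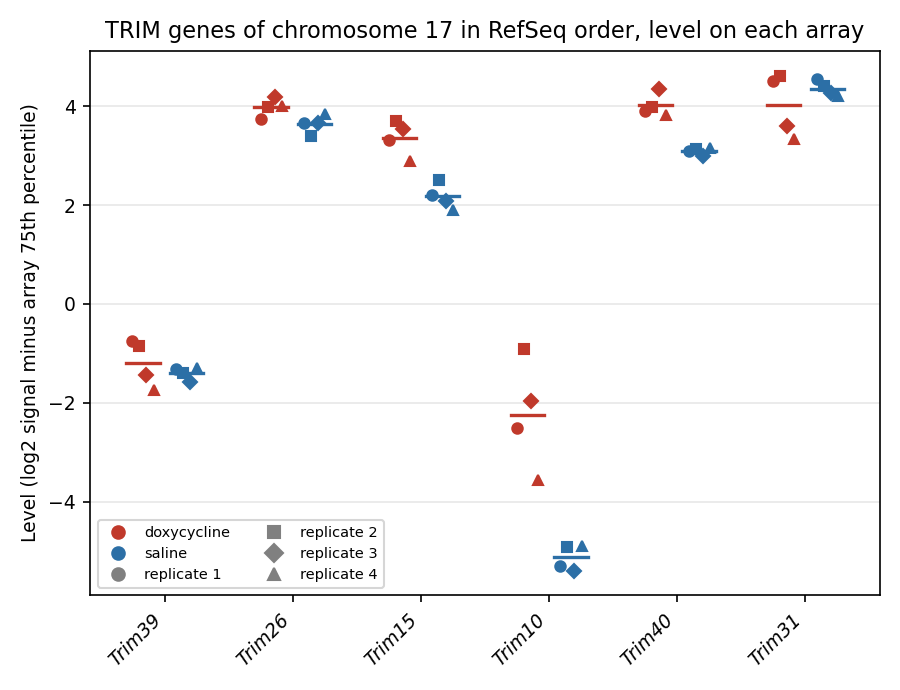
Level on each array of the 6 TRIM genes of chromosome 17, in RefSeq order (log2 signal minus the array's 75th percentile); red is doxycycline, blue is saline, symbols give the replicate and bars are group means. The groups separate for Trim15, Trim10 and Trim40 and overlap for Trim39, Trim26 and Trim31; the saline values of Trim10 are not well above background.

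The genes that fell were Trim2, Trim32, Trim38 and Trim45. Trim2 and Trim32 belong to the group that ends in NHL repeats, a propeller that binds RNA or protein. Of the 3 tested genes of that group, 0 rose, 2 fell and 1, Trim3, did not pass the test (0.18, adjusted p 0.383, limma), where 7.9% of all genes tested fell.

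Trim2, a ligase for the neurofilament light chain in neurons, stood at 4.12, 3.26, 2.90 and 3.1 after doxycycline and at 4.90, 4.38, 4.94 and 5.21 after saline. All doxycycline arrays were below all saline arrays. The difference was -1.51 ± 0.29 (SE), or 2.86-fold lower with an interval of 1.81 to 4.49 (adjusted p 0.0117, limma), and the call held under all 20 alternatives. A second, dimmer Trim2 probe gave -1.20 ± 0.24 (SE), with groups that did not overlap either (adjusted p 0.0154, limma). The probes lie at chr3:83967683-83967742 and chr3:83965796-83965855 (mm9). None of 4 tested neuronal markers passed the test, with 0 at an unadjusted p under 0.05 (limma), and their summed linear signal ran from 13.3 to 24.5 on the doxycycline arrays and from 19.0 to 24.0 on the saline arrays.

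Trim32, a ligase mutated in limb-girdle muscular dystrophy, stood at 1.14, 1.44, 0.73 and 0.87 against 1.91, 1.73, 1.85 and 1.89. The saline arrays were tightly grouped above the doxycycline arrays. The difference was -0.80 ± 0.18 (SE), or 1.74-fold lower with an interval of 1.31 to 2.31 (adjusted p 0.0219, limma). Leaving out doxycycline replicate 3 or 4, or saline replicate 1 or 3, gave adjusted p between 0.0623 and 0.0677.

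Trim38, which restrains Toll-like receptor signalling, and Trim45, which has a filamin domain, were dim. Trim38 stood at -4.40, -4.17, -4.76 and -5.69 after doxycycline and at -2.41, -2.34, -2.44 and -3.97 after saline, and was well above background on 2 doxycycline and 3 saline arrays. Its difference was -1.97 ± 0.44 (SE) (adjusted p 0.0212, limma). Trim45 stood at -3.54, -3.52, -4.67 and -4.13 against -3.34, -2.14, -1.95 and -2.52, well above background on 3 doxycycline and 2 saline arrays. Its difference was -1.48 ± 0.36 (SE) (adjusted p 0.0287, limma), from 1 of the 3 Trim45 probes. The other Trim45 probes were well above background on no array. In both genes the doxycycline arrays lay below all saline arrays. With all values raised to a common floor, the differences were -0.13 and -0.28 and neither passed (adjusted p 0.129 and 0.266, limma). For Trim38 the adjusted p lay between 0.0502 and 0.0631 without doxycycline replicate 3 or 4 or saline replicate 1 or 3, and for Trim45 between 0.0506 and 0.0806 without doxycycline replicate 3 or 4 or saline replicate 2, 3 or 4.

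The 5 genes nearest to the threshold outside the interferon-induced list were Trim16, Trim8, Trim33, Trim65 and Trim9. Trim16, which lacks a RING domain and acts at damaged lysosomes, stood at 0.75, 1.09, -0.12 and -0.21 after doxycycline and at 1.46, 1.19, 1.5 and 1.24 after saline. The groups did not overlap, and the difference was -0.97 ± 0.30 (SE) (adjusted p 0.0596, limma). Its second probe gave 0.34 ± 0.22 (SE), with overlapping groups. Trim8, which lowers the cytokine inhibitor Socs1, stood at 2.74, 2.72, 3.24 and 3.31 against 2.31, 2.46, 2.31 and 2.55, without overlap and with the doxycycline replicates in the reverse order to the interferon-induced members. Its difference was 0.60 ± 0.18 (SE) (adjusted p 0.0619, limma). Trim33, a chromatin reader that limits Smad4, stood at -0.73, -0.80, -1.41 and -1.28 against -0.67, -0.29, -0.47 and -0.15. The doxycycline arrays lay just below the saline ones, and the difference was -0.66 ± 0.21 (SE) (adjusted p 0.0659, limma). Trim65, a ligase for the RNA sensor Ifih1, and Trim9, of the brain, had saline signals at background on all 4 arrays. Their group means were -3.79 and -4.39 for Trim65, and -3.40 and -4.24 for Trim9, and neither differed beyond the bound on the saline level.

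By structural class, the 3 tested genes of the bromodomain class that binds chromatin, Trim24, Trim28 and Trim33, gave 0 calls (1, Trim33, at an unadjusted p under 0.05, limma), with Trim28 at 2.54 ± 0.30 against 2.53 ± 0.07 (SD, n = 4). Its 95% interval ran from -0.39 to 0.41. The membrane-anchored Trim13 and Trim59 gave 0 calls, and 0 at an unadjusted p under 0.05 (limma). Of the 4 muscle genes, Trim54 and Trim55 were well above background on no array, Trim63 was so on 2, and the membrane repair gene Trim72 did not pass the test (-0.61, adjusted p 0.328, limma). The 2 tested skeletal muscle markers differed by -1.36 and -1.04, both at an unadjusted p under 0.05 (limma; 31.4% of all genes), and 0 passed. Of 6 tested smooth muscle markers, 0 had an unadjusted p under 0.05 (limma). The part of muscle cells in the result was not tested. Of the 3 genes with the brightest probes, Trim25 is given above, and Trim41 differed by -0.02 with an interval from -0.34 to 0.30. The third, Trim31, is among the chromosome 17 genes. Of the 20 genes not tested, 9 were well above background on no array and 11 on 1 to 3 arrays.

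**Figure D4:**
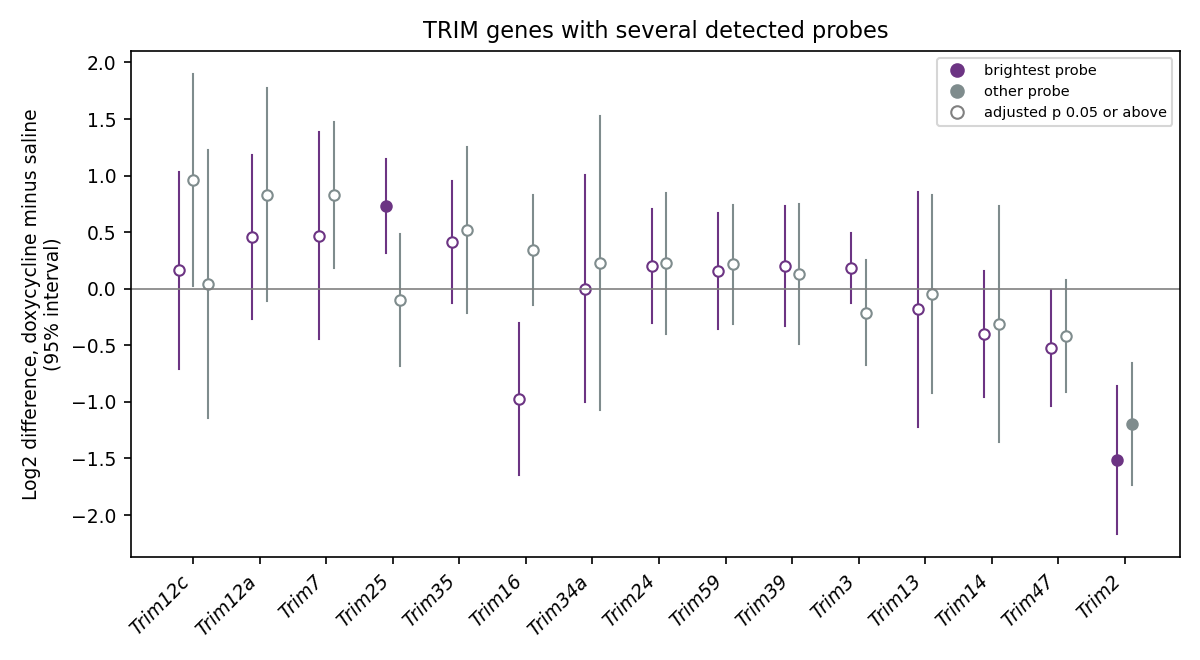
Log2 difference, doxycycline minus saline, of each detected probe of the 15 TRIM genes with several detected probes, with 95% intervals from limma; purple is the brightest probe, grey any other, and filled points have an adjusted p under 0.05. Both Trim2 probes lie below 0 (-1.51 and -1.20), whereas the Trim25 probes (0.73 and -0.10) and the Trim16 probes (-0.97 and 0.34) part.

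Of 33 tested relatives and partners of the TRIM proteins, 6 rose (18.2%), 2 fell (6.06%) and 25 did not pass the test, with a median difference of 0.16. Of all genes tested, 5.94% rose and 7.9% fell. The partners that rose include the substrates of Trim25 and Trim65: Ddx58 by 0.98 (adjusted p 0.0456) and Ifih1 by 1.20 (adjusted p 0.0134), both from limma. Isg15, a ubiquitin-like modifier, rose by 2.96 and its conjugating enzyme Ube2l6 by 0.70 (adjusted p 0.0014 and 0.0248, limma). The kinase Tbk1 rose by 0.69 and Tmem173, which encodes the Trim56 target STING, by 1.36 (adjusted p 0.0181 and 0.0136, limma). Ube2n, the enzyme with which several TRIM ligases build chains, fell by 1.36, and Mid2, a TRIM protein by structure that binds microtubules, fell by 0.89 with overlapping groups (adjusted p 0.0428 and 0.0389, limma). The count of 6 became 3 without saline replicate 3, and the count of 2 became 0 without doxycycline replicate 3 or 4 or saline replicate 1, 3 or 4. Ddx58 did not pass without doxycycline replicate 1 or 2 or any single saline array (adjusted p 0.0681 to 0.110), nor Ube2l6 without doxycycline replicate 2 or 3 or saline replicate 1 or 3 (0.0562 to 0.0684), nor Tbk1 without doxycycline replicate 3 or saline replicate 3 (0.0559 and 0.0514). Ube2n did not pass without doxycycline replicate 3 or 4 or saline replicate 1, 3 or 4 (adjusted p 0.0836 to 0.111), nor Mid2 without doxycycline replicate 2, 3 or 4 or saline replicate 1, 3 or 4 (0.0711 to 0.108). The other TRIM proteins without a Trim symbol did not pass: Pml, of nuclear bodies, differed by 0.63 without overlap (adjusted p 0.0732), Mid1 by 0.99 (adjusted p 0.157) and Mefv, which encodes pyrin, by 0.07 (adjusted p 0.785), all from limma.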

How the data were processed

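RNA (200 ng per sample, per the labels) was hybridised to 1-colour arrays. The values used are linear intensity per spot in the deposited scanner output of Agilent Feature Extraction 10.7.3.1 (file headers, submitters' processing notes), with background subtracted and a surrogate written for spots within noise, per the file headers. A deposited table of log2 values came beside it. Per array, it matched the scaled log2 signal of the scanner output within 0.01 for 100% of probes, so scale, centring and direction are known. Its column medians were -3.77, -3.92, -3.83 and -3.81 for doxycycline and -3.97, -3.70, -3.79 and -3.86 for saline replicates 1 to 4. It served as an alternative.

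Control spots and outlier spots (169 to 259 per array) were left out, 0 spots were saturated, spots of a probe were averaged, and each array's 75th percentile of the log2 processed signal was subtracted. Probes that at least 4 of the 8 arrays called well above background were kept (28626 probes, 21362 genes by their brightest kept probe). The group difference was fitted in R 4.3.3 with limma 3.58.1 (lmFit, then eBayes; two-sided) and p-values were adjusted by Benjamini-Hochberg over all genes, with a threshold of 0.05. Second probes come from that model fitted to every kept probe. The fit was tested on simulated data. The number of arrays limits the precision. Replicate numbers were treated as unpaired. A gene seen in 1 group alone is given as at least N-fold.

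Of the 66 array accessions, 65 matched RefSeq with the same symbol, and 4 of the 97 probes carry no position. Named are all interferon-induced members, all others past the threshold, the 5 next by p, members with disagreeing probes, the 3 brightest, and partners past the threshold with Pml, Mid1, Mid2 and Mefv; Trim3, Trim13, Trim24, Trim28, Trim39, Trim54, Trim55, Trim58, Trim59, Trim63 and Trim72 were added by class or position after their values were seen. The members and lists were chosen with earlier results of these data known. Alternatives were normexp background (offset 50), quantile and median scaling, a common floor, other probe filters, other ways to join probes, array weights, the replicate number as a block, the value table, and leaving out arrays.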

Additional observations from a re-analysis of the deposited data

Results flagged for a closer look

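Within a group of 4 arrays, a single array stood far from the other 3 in 7 of the 80 gene and group pairs examined among the TRIM genes, their relatives and partners named above. Chance flags about 1 in 20 groups. Of the 7, 4 concern saline replicate 4. It stood at 2.14 for Trim14, where the others lay between 2.36 and 2.37, and at -3.88 for Trim34b, where the others lay between -2.71 and -2.48. It stood at -3.97 for Trim38 (others -2.44 to -2.34) and at 0.18 for Tbk1 (others 0.55 to 0.58). Doxycycline replicate 2 stood at 2.06 for Trim21, where the others lay between 1.38 and 1.46, and at 4.38 for Tmem173, where they lay between 3.39 and 3.44. Doxycycline replicate 1 stood at -1.04 for Mid2, with the others between -1.83 and -1.75.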

How the results depend on the processing

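Trim2, Trim15 and Trim40 kept their calls under all 20 alternatives run, each of which changed 1 choice. Of the 7 higher and 4 lower TRIM calls, the common floor left 5 and 2 (other TRIM genes 2 and 2; partners lower 0), since it raises dim values to 1 level. Without a filter on dim probes, 8 were higher and 16 lower (all 16 among the other TRIM genes, whose median difference became -0.15), as 11809 of all genes became lower and the median of all genes moved from 0.02 to -0.33; dim probes then enter with the noise levels that differ between the groups. Normexp background called 5 interferon-induced members and 10 partners higher, and testing each kept probe called 11 partner probes higher. The mean of the kept probes called 1 partner lower and turned the Tnk1 difference from -0.45 to 1.17. Array weights called 2934 genes higher, 3389 lower and 5 partners lower. Without saline replicates 2 and 4, which have the fewest probes well above background, 4 TRIM genes were higher, 0 of them interferon-induced, and 2 lower, all among the other TRIM genes, beside 2 partners higher and 0 lower and 1027 of all genes lower. The cause of these changes was otherwise not tested. Of the genes short of the threshold, Trim8 passed under 6 alternatives, Trim33 under 5, Trim16 under 4, Trim26 under 2 and Trim56 under 1.

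Leaving out each array in turn gave 4 to 7 TRIM genes higher and 1 to 5 lower, 0 to 3 interferon-induced members higher, and 4 to 5 higher and 1 to 5 lower among the others. It gave 3 to 6 partners higher and 0 to 3 lower, and 648 to 1541 of all genes higher and 729 to 1870 lower. The medians ran from 0.34 to 0.62 for the interferon-induced and from 0.00 to 0.11 for the other TRIM genes.

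Arrays with the same replicate number did not deviate together from their group means (r across genes 0.01, -0.04, 0.11 and 0.01). With the replicate number as a block, 6 TRIM genes were higher and 2 lower, the lower ones all among the other TRIM genes. The block gave 0 partners lower, 787 of all genes higher and 905 lower.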
